A study of Mus musculus with 11 samples.

Results

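Goblet cells are the secretory cells that make the mucus of the gut, and 10 genes of their mucus programme were followed here: Muc2, Tff3, Fcgbp, Clca1, Zg16, Agr2, Spdef, Ern2, Ccl6 and Spink4. They were taken by symbol from a table of 11366 genes, in which all 10 were found, and all 10 passed the filter on low values that left 10482 genes for testing. The libraries were RNA-seq of epithelial cells from the small intestine of wild-type mice, sorted as live cells positive for the epithelial adhesion molecule EpCAM and negative for CD45, CD31 and CD44. SFB mice ate standard chow and were colonized with SFB (n = 4), taken to stand for segmented filamentous bacteria, which live attached to epithelial cells of the ileum. NFF mice ate a diet low in fermentable fiber and received no further treatment (n = 4). Control mice ate standard chow and were not treated (n = 3). The labels give no age or sex and do not say whether a library came from 1 animal, so p-values reflect only how far these libraries spread, which could be of technical origin.

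Mucus is built around a gel-forming mucin that is folded in the endoplasmic reticulum, coated with O-linked sugars in the Golgi, linked into polymers and packed into granules. The mucin is released together with smaller proteins that bind, cut or stabilize the gel. The programme is switched on in the secretory lineage downstream of the transcription factor Atoh1. In the small intestine the gel is loosely attached and, with antimicrobial proteins, keeps bacteria away from the epithelium.

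The genes lie apart from each other in the genome (GRCm38, GENCODE M21). Muc2, the gel-forming mucin, is on the plus strand of chromosome 7 (141690340 to 141754693), as is Fcgbp, a large mucus protein that binds the Fc part of IgG (28071236 to 28120862). Zg16, a lectin that binds Gram-positive bacteria (127050156 to 127087328), and Ern2, an endoplasmic reticulum stress sensor of mucus-making epithelia (122169893 to 122186207), are on the minus strand of chromosome 7. Tff3, a trefoil peptide (31125306 to 31129646), and Spdef, an ETS-family transcription factor of goblet cell maturation (27714352 to 27728955), are on the minus strand of chromosome 17. Clca1, a metalloprotease that cleaves Muc2, is on chromosome 3 (145003817 to 145032776), Agr2, a disulfide isomerase needed for making Muc2, on chromosome 12 (35992907 to 36004087), Ccl6, a chemokine that myeloid cells also make, on chromosome 11 (83587882 to 83593087), and Spink4, a Kazal-type protease inhibitor, on chromosome 4 (40920052 to 40931395). No gene of this annotation shared exons with any of the 10, though the gene models behind the RPKM values are not given.

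Promoter sequences from RefSeq (GRCm38.p6) were found for 5 of the 10 genes, Muc2, Fcgbp, Ccl6, Agr2 and Spdef. The 250 bases before the start are shown for 3 of them on the gene's own strand, Muc2 as the structural core, Fcgbp as the gene with the largest difference between SFB and NFF, and Ccl6 as the only one that passed the test in any comparison. Capitals mark CAGCTG, an E-box of the kind that basic helix-loop-helix factors such as Atoh1 bind, and GGAAGT or its reverse complement ACTTCC, a core of the kind that ETS factors such as Spdef bind. The windows are chr7:141690090-141690339 (plus strand) for Muc2, chr7:28070986-28071235 (plus strand) for Fcgbp and chr11:83593088-83593337 (minus strand) for Ccl6.
Muc2: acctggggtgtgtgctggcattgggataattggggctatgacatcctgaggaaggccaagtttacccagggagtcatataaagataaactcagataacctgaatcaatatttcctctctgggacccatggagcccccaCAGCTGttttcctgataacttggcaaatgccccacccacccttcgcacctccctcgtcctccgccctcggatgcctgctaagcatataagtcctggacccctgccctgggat
Fcgbp: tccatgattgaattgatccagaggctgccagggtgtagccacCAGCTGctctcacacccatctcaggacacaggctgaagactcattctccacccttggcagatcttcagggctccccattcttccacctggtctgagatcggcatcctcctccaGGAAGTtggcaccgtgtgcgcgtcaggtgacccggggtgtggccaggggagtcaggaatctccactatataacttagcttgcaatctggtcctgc
Ccl6: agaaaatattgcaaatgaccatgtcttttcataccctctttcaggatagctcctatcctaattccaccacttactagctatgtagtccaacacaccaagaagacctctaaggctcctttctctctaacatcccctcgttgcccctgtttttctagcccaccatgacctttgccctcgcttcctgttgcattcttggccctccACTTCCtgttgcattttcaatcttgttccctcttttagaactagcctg
Searched on both strands, CAGCTG matched in 2 of the 5 promoters, beginning 112 bases before the start of Muc2 and 208 bases before that of Fcgbp, and in 13% of 32851 mouse promoter windows of the same length. GGAAGT matched in 2 of the 5, beginning 95 bases before the start of Fcgbp and 48 before that of Ccl6, and in 19.7% of all windows. Of 4 further sequences searched in the same way, TATAAA matched in Muc2 (12.4% of all windows), TTTATNG in Agr2 (9.81%), TNTTTAC in Spdef (10.9%) and CCACG in none of the 5 (28.3%). None of the marked matches overlapped each other. These matches describe the letters of the windows, not sites in use.

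The libraries held the epithelial identity of their labels, and a few stood apart in their mix of epithelial cells. Epcam ranged from 494 to 670.4 RPKM (reads scaled to gene length and to the size of the library) in SFB, 586 to 648 in NFF and 489 to 615 in Control. Cd44 was low but not equal, at 1.17 to 2.29 RPKM in SFB, 0.333 to 0.646 in NFF and 0.457 to 0.969 in Control. Every SFB library was thus above every NFF and Control library for Cd44. The mean log2(RPKM + 1) of 14 Paneth cell genes was 3.62 in SFB 2, against 8.58 to 9.53 in the other SFB libraries. SFB 4 had the lowest mean of 12 enterocyte genes, 6.03, and the highest of 12 genes of dividing and crypt cells, 4.12. Control 2 had a mean of 4.33 over 7 genes of the distal small intestine, against 6.48 and 7.004 in the other Control libraries. The log2 values below are all of log2(RPKM + 1), and differences are given as the first group minus the second.

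**Figure D1:**
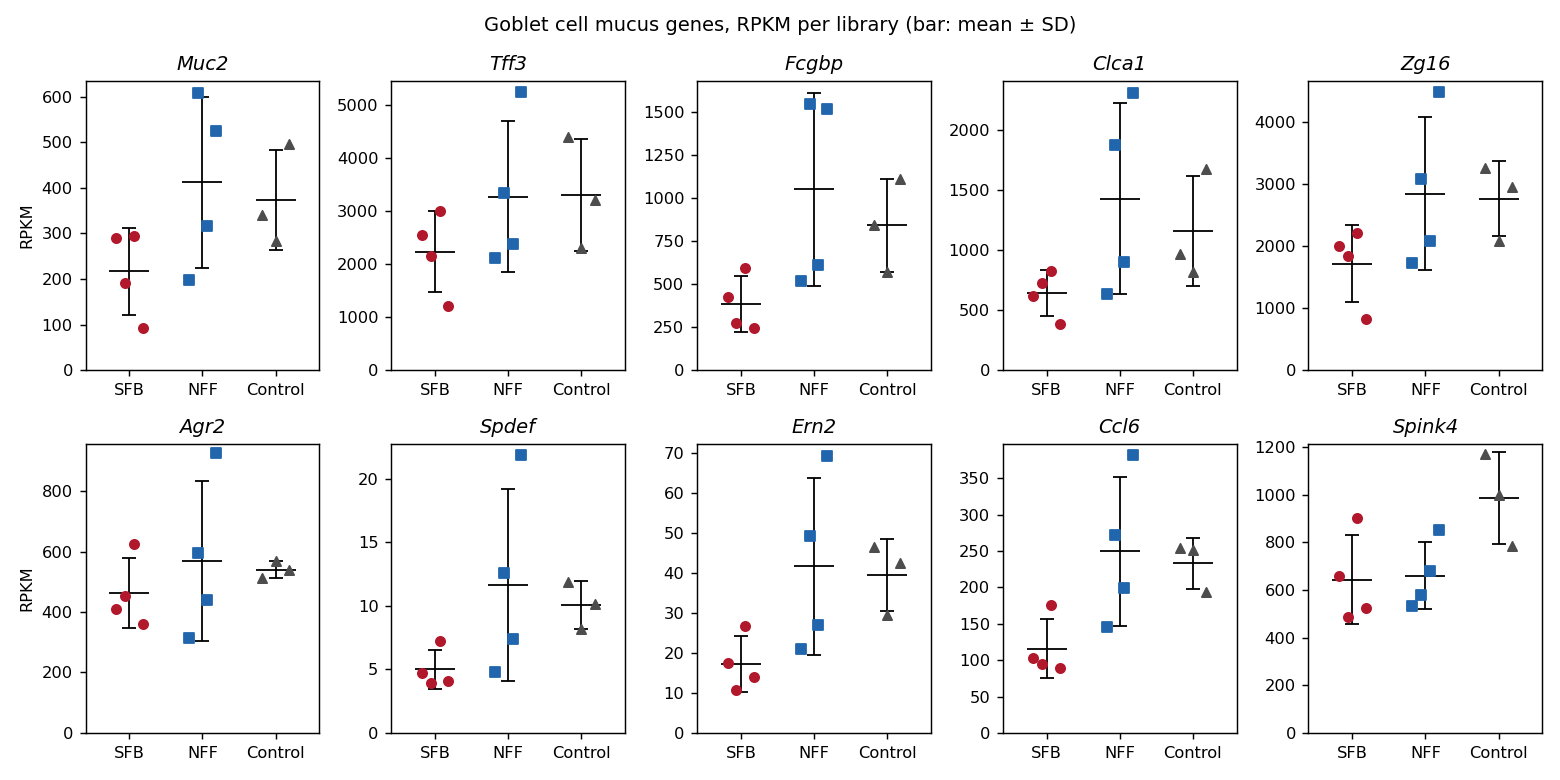
RPKM of each of the 10 genes (y axis, linear from 0) in every library of SFB, NFF and Control (x axis). Points are libraries, and the horizontal mark and bar are the mean ± SD of 4, 4 and 3 libraries. SFB 4 or SFB 2 is the lowest SFB point in every panel, and the NFF points are spread widest for most genes.

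The peptide gene Tff3 and the lectin gene Zg16 were among the most abundant transcripts of the epithelium, while Ern2 and Spdef ranked far lower. Ern2 ranked between 1464 and 3406 in SFB, 643 and 2000 in NFF, and 986 and 1590 in Control. Spdef ranked between 4686 and 6911 in SFB, 2031 and 5955 in NFF, and 3228 and 4559 in Control. Tff3 was the most abundant of all 11366 genes in NFF 4 and ranked 12th or higher in every SFB library, 10th or higher in every NFF library and 13th or higher in every Control library. Zg16 ranked between 8 and 17 in SFB, between 2 and 16 in NFF and between 5 and 16 in Control. Both genes together made 54.3% to 64.3% of the summed RPKM of the 10 genes in SFB, 53.7% to 61.9% in NFF and 55.5% to 64.9% in Control. Summed over the 10 genes, RPKM ranged from 3739.97 to 8662 in SFB, from 6206 to 16330.5 in NFF and from 7918 to 11807 in Control. That sum was 1.58% to 3.43% of the RPKM sum of the table in SFB, 2.36% to 5.91% in NFF and 2.71% to 4.20% in Control, so the ranges of the 3 groups overlapped.

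Ordered by mean level per length, Tff3 was followed by Zg16 in all 3 groups, and Muc2, Ccl6, Ern2 and Spdef closed the order in all 3. Tff3 exceeded Zg16 in 4 of 4 SFB, 4 of 4 NFF and 3 of 3 Control libraries, although their ranges overlapped in each group. The middle of the order, between Zg16 and Muc2, differed between groups. In SFB and NFF, the ranges of neighbouring genes overlapped there. In Control, Zg16 lay above Clca1, Fcgbp above Agr2 and Agr2 above Muc2 without overlap. The lowest Control value of Fcgbp was 569.7 RPKM and the highest of Agr2 569.1. Spink4 was next after Zg16 in SFB and exceeded Clca1 in 3 of 4 libraries, whereas Clca1 followed Zg16 by mean in Control and exceeded Spink4 in 1 of 3. In NFF, Fcgbp and Spink4 were neighbours that each led in 2 of 4 libraries. Ccl6 was above Ern2 with no overlap of their ranges in each group.

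In SFB against Control, in mice on the same chow, all 10 mucus genes had lower mean values in SFB, and none passed the test. The median log2 fold change over the 10 genes was -0.86, against 0.012 over all genes tested, of which 47.5% were below 0. Limma with Benjamini-Hochberg adjustment over all genes called 0 of the 10, against 0.2% of all genes (21 of 10482). At an unadjusted p under 0.05, 5 of the 10 genes were lower, namely Ccl6, Ern2, Fcgbp, Spink4 and Spdef, where 6.6% of all genes were lower and 5.47% higher. The SFB and Control libraries did not overlap for 3 of the 10, with SFB lower in each, and for 6.05% of all genes in that direction. These are whole sorted populations, so fewer goblet cells and less mucus RNA per goblet cell cannot be told apart.

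**Figure D2:**
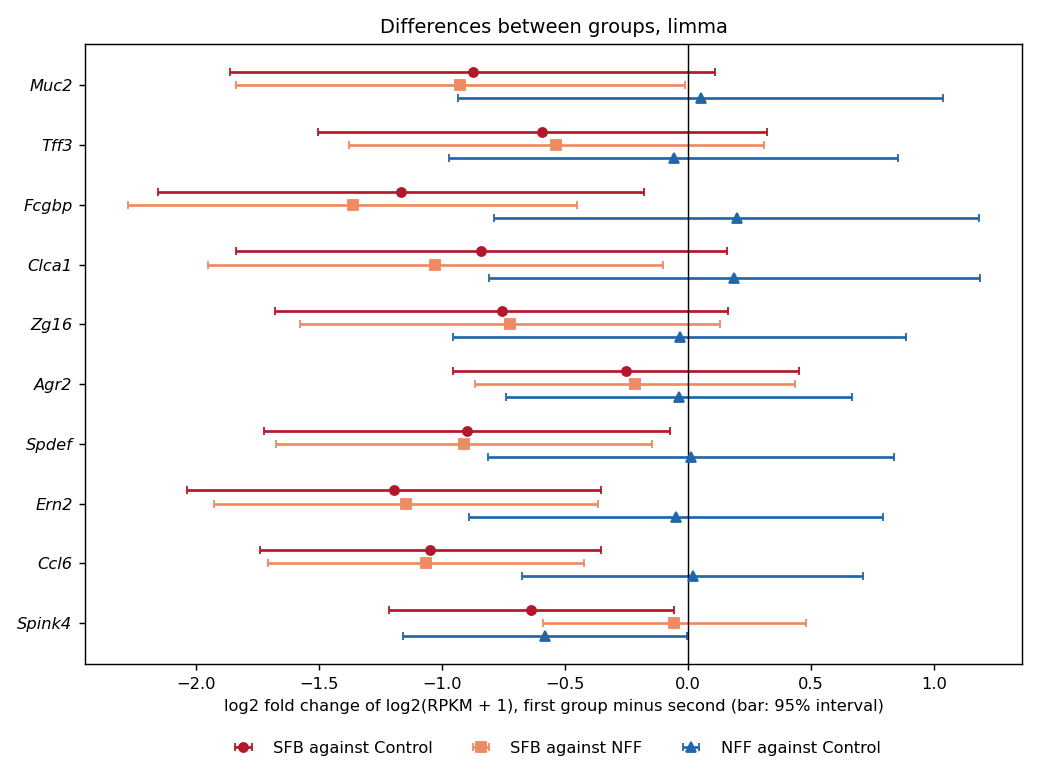
Log2 fold change of each gene (x axis, on the log2(RPKM + 1) scale, first group minus second) in the 3 comparisons, with 95% intervals from limma. The values of SFB against Control lie between -1.20 and -0.25, those of SFB against NFF between -1.36 and -0.057, and those of NFF against Control between -0.58 and 0.20.

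Of the structural and gel-modifying genes, Fcgbp showed the largest difference. Muc2 stood at 291, 191, 293 and 93.1 RPKM in SFB 1 to 4, against 341, 284 and 497 in Control 2, 4 and 5, with a log2 fold change of -0.88 (95% interval -1.86 to 0.11; limma adjusted p = 0.471). SFB 4 was the lowest of all libraries for Muc2, and SFB 1 and SFB 3 lay within the Control range. Fcgbp stood at 426, 274, 595 and 244 RPKM in SFB 1 to 4 and at 843, 569.7 and 1112 in Control 2, 4 and 5 (log2 fold change -1.17 ± 0.45, SE, with a limma adjusted p of 0.331). Only SFB 3 reached into the Control range of Fcgbp. Clca1 ranged from 382 to 828.7 RPKM in SFB and from 818 to 1676 in Control (-0.84, limma adjusted p = 0.490), and Zg16 from 819.6 to 2204 in SFB and from 2087 to 3249.7 in Control (-0.76, adjusted p = 0.502). Tff3, with 1211 to 3003 RPKM in SFB and 2305 to 4407 in Control, had a smaller difference (-0.59, limma adjusted p = 0.622).

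Of the regulatory and protein-folding genes, Ern2 and Spdef had no overlap between SFB and Control libraries, while Agr2 had the smallest difference of the 10 genes. Ern2 stood at 17.4, 10.8, 26.7 and 14.0 RPKM in SFB 1 to 4 and at 46.5, 29.4 and 42.3 in Control 2, 4 and 5, with every SFB library below every Control library. Its log2 fold change was -1.20 ± 0.39 (SE; limma adjusted p = 0.232). Spdef stood at 4.75, 3.94, 7.27 and 4.09 RPKM in SFB 1 to 4 and at 11.9, 8.16 and 10.2 in Control 2, 4 and 5, again without overlap (-0.90 ± 0.38, SE; limma adjusted p = 0.371). Agr2 stood at 412, 454, 626 and 359 RPKM in SFB 1 to 4 and at 513, 569 and 539.98 in Control 2, 4 and 5, where SFB 3 was above and the other SFB libraries below all Control libraries. Its log2 fold change was -0.25 (95% interval -0.96 to 0.45; limma adjusted p = 0.818).

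Of the smaller secreted proteins outside the gel itself, Ccl6 had the lowest p of the 10 genes. Ccl6 stood at 103, 94.7, 176 and 89.5 RPKM in SFB 1 to 4 and at 254, 251 and 193 in Control 2, 4 and 5, which gave a log2 fold change of -1.05 with an SE of 0.32 and a limma adjusted p of 0.199. All 4 SFB libraries were below all 3 Control libraries, and SFB 3 lay far above the other SFB libraries. Spink4 stood at 659.6, 487, 902 and 524 RPKM in SFB 1 to 4 and at 1171, 997 and 786 in Control 2, 4 and 5 (-0.64 ± 0.26, SE; limma adjusted p = 0.364), and SFB 3 again overlapped the Control range.

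Leaving out SFB 4 gave a median over the 10 genes of -0.58, while leaving out SFB 2 gave -0.84 and leaving out Control 2 gave -0.85, next to -0.86 with all libraries. Some genes had larger differences without one of these libraries, such as Clca1 (-0.92) and Zg16 (-0.82) without SFB 2 and Muc2 (-0.92) without Control 2. Leaving out Control 2, SFB 2 and SFB 4 together gave a median of -0.46, with 9 of 10 genes below 0 and Tff3 at 0.026. The 5 genes with an unadjusted p under 0.05 became 2 without SFB 2, without SFB 4 or without Control 2, 3 without Control 5, and 0 without Control 2, SFB 2 and SFB 4. With the mean log2 level of 19 other goblet cell markers as a covariate, the median was 0.092, with 4 genes below 0 and 6 above. That covariate moves with the groups itself, at 3.63 to 4.16 in SFB against 4.38 to 4.65 in Control.

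In NFF against Control, a comparison of diets, the mucus genes were spread evenly around 0. The median log2 fold change over the 10 genes was -0.011, against -0.0085 over all genes tested, with 5 genes above and 5 below 0 where 51.7% of all genes were below 0. Limma called 0 of the 10 genes, against 0% of all 10482 genes, and 1 of the 10 had an unadjusted p under 0.05, as 4.82% of all genes did (1.95% lower and 2.87% higher). The libraries did not separate the groups for any of the 10 genes, where 9.77% of all genes were separated. The 95% intervals leave sizeable differences possible, such as -0.93 to 1.03 for Muc2, -0.79 to 1.18 for Fcgbp and -0.89 to 0.79 for Ern2.

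The gene with the unadjusted p under 0.05 was Spink4. It stood at 533, 579, 678 and 849.9 RPKM in NFF 1 to 4 and at 1171, 997 and 786 in Control 2, 4 and 5 (log2 fold change -0.58 ± 0.26, SE, with a limma adjusted p of 0.896). Of the NFF libraries only NFF 4 reached the Control range. The other 9 genes had values from -0.058 for Tff3 to 0.20 for Fcgbp. Muc2 stood at 198, 609, 317 and 525 RPKM in NFF 1 to 4, on both sides of the Control range of 284 to 497.

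The NFF libraries differed among themselves far more in the mucus genes than in most genes. The median SD of the log2 level over the 10 genes was 0.51 in SFB, 0.70 in NFF and 0.34 in Control, against 0.25, 0.14 and 0.21 over all genes tested. NFF 1 was the lowest NFF library for 10 of 10 genes, where it was the lowest for 26.1% of all genes tested, and NFF 4 was the highest for 8 of 10, where it was the highest for 34.6% of all genes. NFF 2 was the highest for the other two, Muc2 and Fcgbp. Spdef stood at 4.76, 12.6, 7.36 and 21.9 RPKM in NFF 1 to 4, a 4.59-fold range that was the widest of the 10 genes. Clca1 stood at 630.3, 1873, 902 and 2309.9 RPKM in NFF 1 to 4, a 3.66-fold range. SFB 3 was the highest SFB library for 10 of 10 genes, against 25.0% of all genes, and SFB 4 was the lowest for 7 of 10, against 24.7%.

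**Figure D3:**
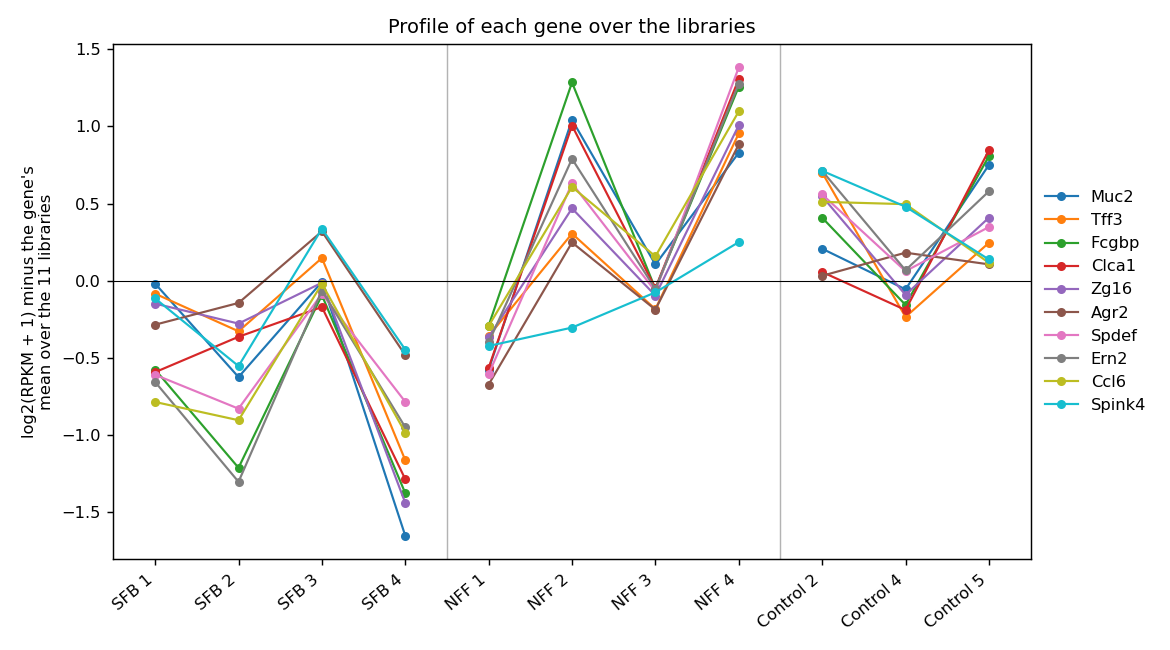
Log2(RPKM + 1) of each gene minus its mean over the 11 libraries (y axis), by library (x axis), with 1 line per gene within each group. Most lines move together, high in NFF 2 and NFF 4 and low in SFB 4, SFB 2 and NFF 1. Spink4 and Agr2 have the smallest range over the libraries, 1.26 and 1.56 on the log2 scale.

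Within NFF, the means of the 19 other goblet cell markers and of 9 enteroendocrine markers had the same order over the 4 libraries as the mucus genes. The mean log2 level of the 10 mucus genes was 7.93 in NFF 1, 8.99 in NFF 2, 8.33 in NFF 3 and 9.41 in NFF 4, and that of the other goblet cell markers 3.95, 4.81, 4.29 and 5.24 in the same libraries. The mean of 9 enteroendocrine markers was 5.15 in NFF 1, 6.0 in NFF 2, 5.67 in NFF 3 and 7.15 in NFF 4. The other goblet secreted genes, the lineage regulators and the mucin glycosylation genes, described below, had this order in NFF too. Outside NFF the enteroendocrine order differed. SFB 3, highest of SFB for the mucus genes (8.42), had an enteroendocrine mean of 5.07 against 5.46 in SFB 2. Control 5, with 8.82 for the mucus genes near 8.83 in Control 2, had 5.48 against 7.10. The part of the enteroendocrine markers in the spread of the mucus genes was not tested. The mean of 7 distal small intestine genes was 7.38 to 7.50 in the 4 NFF libraries, and that of 5 proximal genes 2.53 to 2.96. The mean of the Paneth markers was lowest in NFF 4 among the NFF libraries, at 9.46.

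In SFB against NFF, where diet and colonization both differ, Ccl6 fell in SFB and the other 9 genes were not called. The median log2 fold change over the 10 genes was -0.92, against 0.020 over all genes tested, with 10 of 10 below 0 where 47.3% of all genes were. Limma called 1 of the 10 genes, while 7.34% of all genes were called, 4.2% as lower and 3.14% as higher, so the count of calls was near the background. At an unadjusted p under 0.05, 6 of the 10 genes were lower, against 13.2% of all genes lower and 12.5% higher. For none of the 10 were the SFB and NFF libraries fully separated, since NFF 1 overlapped SFB for all 10 genes, and 9.91% of all genes were separated with SFB lower. This comparison shares its SFB libraries with SFB against Control, so the values of both are not independent.

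Ccl6 stood at 103, 94.7, 176 and 89.5 RPKM in SFB 1 to 4, against 145, 272, 199 and 382 in NFF 1 to 4, so that only SFB 3 reached into the NFF range. Its log2 fold change was -1.07 ± 0.29 (SE; limma adjusted p = 0.049). The call lay at the threshold and was lost under 15 of 23 alternatives, among them without SFB 1 (-1.03, limma adjusted p = 0.10), without NFF 2 (-0.99, adjusted p = 0.137) and without Control 2, SFB 2 and SFB 4 (-0.80, adjusted p = 0.187). Of 16 leukocyte markers, 4 were among the genes of the table, of which Ptprc, Lyz2 and Siglecf had values below 0 in SFB against NFF and Itgae a value above 0. Siglecf, which tuft cells also express, was the 1 of the 4 that fell. Their summed RPKM was 4.601 to 23.0 in SFB, 38.7 to 42.3 in NFF and 36.7 to 63.6 in Control. Ptprc, which encodes CD45, was at 0.247 to 1.35 RPKM in SFB, 1.40 to 2.48 in NFF and 0.751 to 2.25 in Control, and the myeloid and Paneth-lineage lysozyme gene Lyz2 at 1.34 to 17.2, 18.7 to 29.4 and 20.6 to 50.6. The part of leukocytes in the values of Ccl6 was not tested.

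Fcgbp had the largest difference between SFB and NFF. It stood at 519, 1548, 612 and 1519.5 RPKM in NFF 1 to 4, against which the SFB values of 426, 274, 595 and 244 gave a difference of -1.36 ± 0.42 on the log2 scale (SE) and a limma adjusted p of 0.070. Ern2 stood at 21.0, 49.1, 26.9 and 69.3 RPKM in NFF 1 to 4, and its difference was -1.15 ± 0.36 (SE; limma adjusted p = 0.073). Spdef differed by -0.91 (limma adjusted p = 0.130), Clca1 by -1.03 (adjusted p = 0.154) and Muc2 by -0.93 (adjusted p = 0.189). Without NFF 1, Fcgbp (-1.64), Ern2 (-1.41) and Spdef (-1.23) were called with Ccl6, which made 4 called genes. The 6 genes with an unadjusted p under 0.05 became 3 without SFB 4, without NFF 2 or without NFF 4, and 1 without Control 2, SFB 2 and SFB 4. Zg16 differed by -0.72 (95% interval -1.58 to 0.13), Tff3 by -0.54 (-1.38 to 0.31), Agr2 by -0.22 (-0.87 to 0.44) and Spink4 by -0.057 (-0.59 to 0.48).

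Set against the other mucus genes of the same library, Agr2, Fcgbp and Spink4 departed most from the shared profile. The root mean square distance of a gene's centred log2 profile from the mean of the other 9 over the 11 libraries was 0.51 for Spink4, 0.37 for both Agr2 and Fcgbp, and between 0.20 for Spdef and 0.32 for Muc2 for the rest. Agr2 lay above the mean of the other 9 genes by 0.77, 1.22, 0.97 and 1.29 in SFB 1 to 4, by 0.41, 0.25, 0.50 and 0.50 in NFF 1 to 4, and by 0.20, 0.79 and 0.29 in Control 2, 4 and 5. The SFB values of this measure were above all NFF values and overlapped only Control 4. Fcgbp lay above the others by 0.41 to 0.89 in SFB, 1.03 to 1.78 in NFF and 0.80 to 1.45 in Control, the order reversed from Agr2. Spink4 lay above the others by 1.33 to 1.90 in SFB, 0.21 to 1.26 in NFF and 0.89 to 1.69 in Control. These relative values were compared as ranges and not tested.

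**Figure D4:**
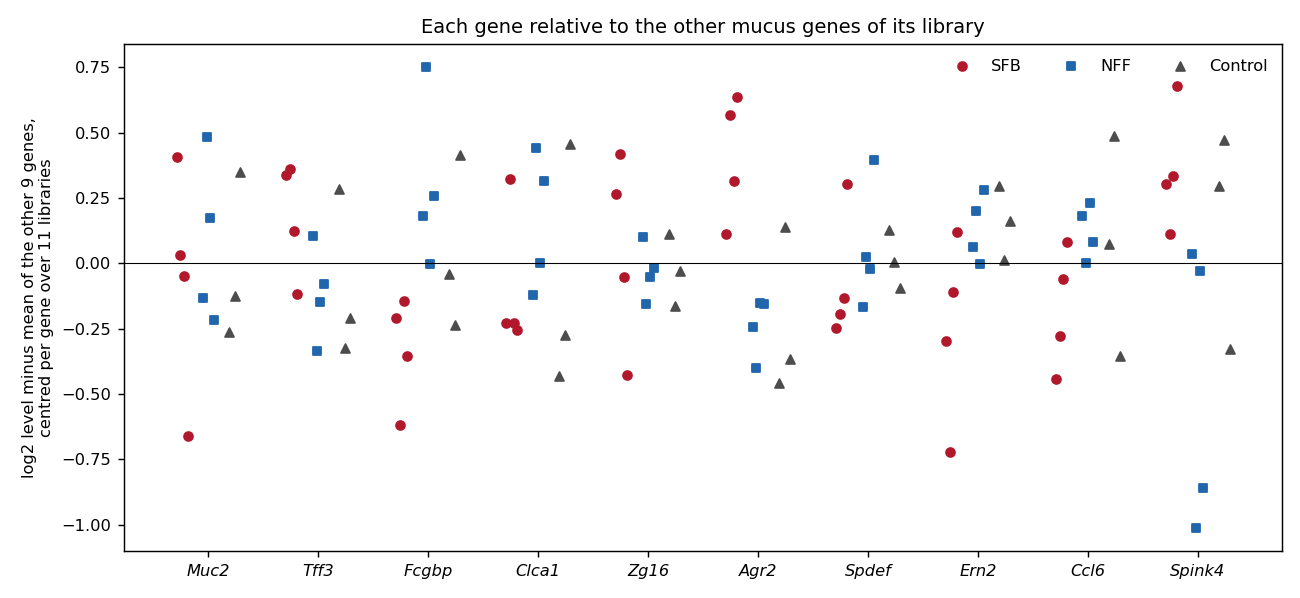
Log2 level of each gene minus the mean of the other 9 genes in the same library, centred per gene over the 11 libraries (y axis), with 1 point per library in SFB, NFF and Control. Agr2 is high in SFB and Fcgbp low, and Spink4 is lowest in NFF 2 and NFF 4.

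The 6 other genes whose centred profile over the 11 libraries was nearest to the mean of the mucus genes were Sytl2, a granule exocytosis gene, Hgfac, a serine protease gene, Capn8, a calpain gene of gastrointestinal mucous cells, Slc35g2, a solute carrier family gene, Bace2, an aspartic protease gene, and Klk1, a tissue kallikrein gene. Their root mean square distances were 0.16 for Sytl2 and Hgfac, 0.16 for Capn8, 0.17 for Slc35g2 and Bace2, and 0.18 for Klk1. Sytl2 stood at 2.17 to 5.33 RPKM in SFB, 3.51 to 10.9 in NFF and 4.78 to 10.2 in Control. Sytl2, Bace2 and Klk1 are also on the lists of other goblet cell genes below. None of the 6 was called in any of the 3 comparisons. Of all genes, 0.2% were called in SFB against Control, 0% in NFF against Control and 7.34% in SFB against NFF.

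Other goblet cell genes were mostly below 0 in SFB, as the mucus genes were. Of 20 other goblet cell markers 19 were tested. In SFB against Control, 18 of the 19 were below 0 with a median of -0.76 and 0 called, where 47.5% of all genes were below 0. At an unadjusted p under 0.05, 7 were lower and 1 higher, against 6.6% of all genes lower and 5.47% higher. The SFB and Control libraries did not overlap for 11 of the 19 with SFB lower and for 0 with SFB higher. Of all genes, 6.05% were separated with SFB lower. Ramp1, a receptor activity-modifying protein gene, stood at 4.40 ± 1.35 RPKM in SFB (SD, n = 4) and 15.4 ± 3.53 in Control (SD, n = 3), not called (-1.62, limma adjusted p = 0.109). In SFB against NFF, 3 of the 19 fell and 1 rose, where 4.2% of all genes were called as lower and 3.14% as higher. Scin, an actin-severing protein gene, fell to 47.8 ± 17.5 RPKM in SFB against 142 ± 27.5 in NFF (SD, n = 4 each; -1.60, limma adjusted p = 0.0036). Ramp1 fell by 1.68 and Lrrc26, a potassium channel subunit gene, by 1.29 on the log2 scale. In NFF against Control the median was 0.050 with 0 called and 1 gene on each side at an unadjusted p under 0.05, as 1.95% of all genes were lower and 2.87% higher.

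Of the other secreted products, 6 of 12 were tested, and only Guca2a, the guanylin peptide gene, was called. Guca2a fell to 872 ± 217 RPKM in SFB against 1963 ± 328 in NFF (SD, n = 4 each; -1.20, limma adjusted p = 0.044). That was 1 of 6, where 4.2% of all genes were called as lower. Control stood at 1032 ± 434 RPKM (SD, n = 3). The SFB libraries, at 555 to 1045, lay within the Control range of 534 to 1324. The NFF libraries, at 1657 to 2404, were all above it, without passing the test (NFF against Control 1.02, limma adjusted p = 0.785). Klk1 stood at 70.8 ± 15.8 RPKM in SFB (SD, n = 4) and 135 ± 28.4 in Control (SD, n = 3), not called (-0.93, adjusted p = 0.349). The median of the 6 was -0.58 in SFB against Control, -0.80 in SFB against NFF and 0.014 in NFF against Control.

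Of 20 regulators of the lineage all were tested, with medians of -0.24 in SFB against Control, -0.25 in SFB against NFF and -0.0061 in NFF against Control, and 0 called in each by limma. At an unadjusted p under 0.05, 7 were lower and 2 higher in SFB against Control, where 6.6% of all genes were lower and 5.47% higher. In SFB against NFF, 9 were lower and 3 higher (13.2% and 12.5% of all genes), and in NFF against Control 1 was lower (1.95%). Gfi1, a zinc-finger repressor of the secretory lineage, stood at 0.832 ± 0.227 RPKM in SFB, 2.26 ± 1.32 in NFF (SD, n = 4 each) and 2.22 ± 0.345 RPKM in the 3 Control libraries, not called, at levels where the log2(RPKM + 1) scale understates a change. Il4ra, the receptor chain through which IL-4 and IL-13 signal, stood at 13.9 ± 1.27 RPKM in SFB and 10.3 ± 0.346 in Control, also not called (0.40, limma adjusted p = 0.150).

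The mucin glycosylation list held 36 tested genes of 42, with medians of 0.046 in SFB against Control, -0.073 in SFB against NFF and -0.014 in NFF against Control. Only SFB against NFF had calls, 2 higher and 2 lower of 36, near the 3.14% of all genes called as higher and 4.2% as lower. B3gnt7, an N-acetylglucosaminyltransferase gene, rose to 25.0 ± 9.75 RPKM in SFB against 10.7 ± 3.39 in NFF (SD, n = 4 each; 1.12, limma adjusted p = 0.028), whereas the sialyltransferase genes St6galnac2 (-1.04, adjusted p = 0.0024) and St3gal6 (-0.86, adjusted p = 0.038) fell. St6galnac2 was also lower in SFB than in Control, at 4.72 ± 0.890 against 8.74 ± 1.76 RPKM, without passing the test (-0.77, limma adjusted p = 0.069).

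The 36 genes of endoplasmic reticulum folding and secretion had medians above 0 in SFB, 0.14 against Control and 0.27 against NFF, while 10 of 10 mucus genes were below 0 in the same comparisons. In SFB against NFF, 3 of the 36 rose and 0 fell, where 3.14% of all genes were called as higher and 4.2% as lower. At an unadjusted p under 0.05, 13 were higher and 1 lower, against 12.5% and 13.2% of all genes. Creld2 rose to 70.5 ± 14.0 RPKM in SFB against 40.8 ± 3.58 in NFF, Sdf2l1 to 91.2 ± 14.6 against 57.8 ± 7.75, and Dnajc10 to 21.3 ± 4.76 against 13.4 ± 1.39 (SD, n = 4 each; limma adjusted p = 0.030, 0.039 and 0.038). In NFF against Control the median was -0.090 with 0 called. In SFB against Control 0 were called, with 8 higher and 1 lower at an unadjusted p under 0.05, against 5.47% and 6.6% of all genes. By separation of the libraries the list leaned the other way there. The SFB and Control libraries did not overlap for 5 of the 36 with SFB lower and for 1 with SFB higher, where 6.05% of all genes were separated with SFB lower. The SFB and NFF libraries did not overlap for 14 of the 36 with SFB higher and for 0 with SFB lower. Of all genes, 9.91% were separated with SFB lower than NFF. The share of all genes separated with SFB higher is not given here for either comparison.

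The mucins that stay in the membrane of enterocytes and other cells had values of the opposite sign to Muc2 in SFB against Control. Muc4, Muc13 and Muc3, the 3 of 9 that were tested, were all above 0 there, with 0 called. Of all genes, 47.5% were below 0 and 0.2% were called in that comparison. In SFB against NFF, 2 of the 3 were above 0 and 1, Muc3, was below 0 (-0.50), the same sign as Muc2. There 47.3% of all genes were below 0, and 3.14% were called as higher, as 1 of the 3, Muc4, was. Muc4 rose to 2.78 ± 0.552 RPKM in SFB against 0.666 ± 0.189 in NFF (SD, n = 4 each; 1.17, limma adjusted p = 0.0017), and stood at 1.24 ± 0.354 RPKM in Control (SD, n = 3). Muc13 stood at 556 ± 115 RPKM in SFB and 417 ± 52.1 in Control (0.40, limma adjusted p = 0.468), and Muc3 at 195 ± 33.2 in NFF and 104 ± 55.1 in Control (1.08, adjusted p = 0.896).

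**Figure D5:**
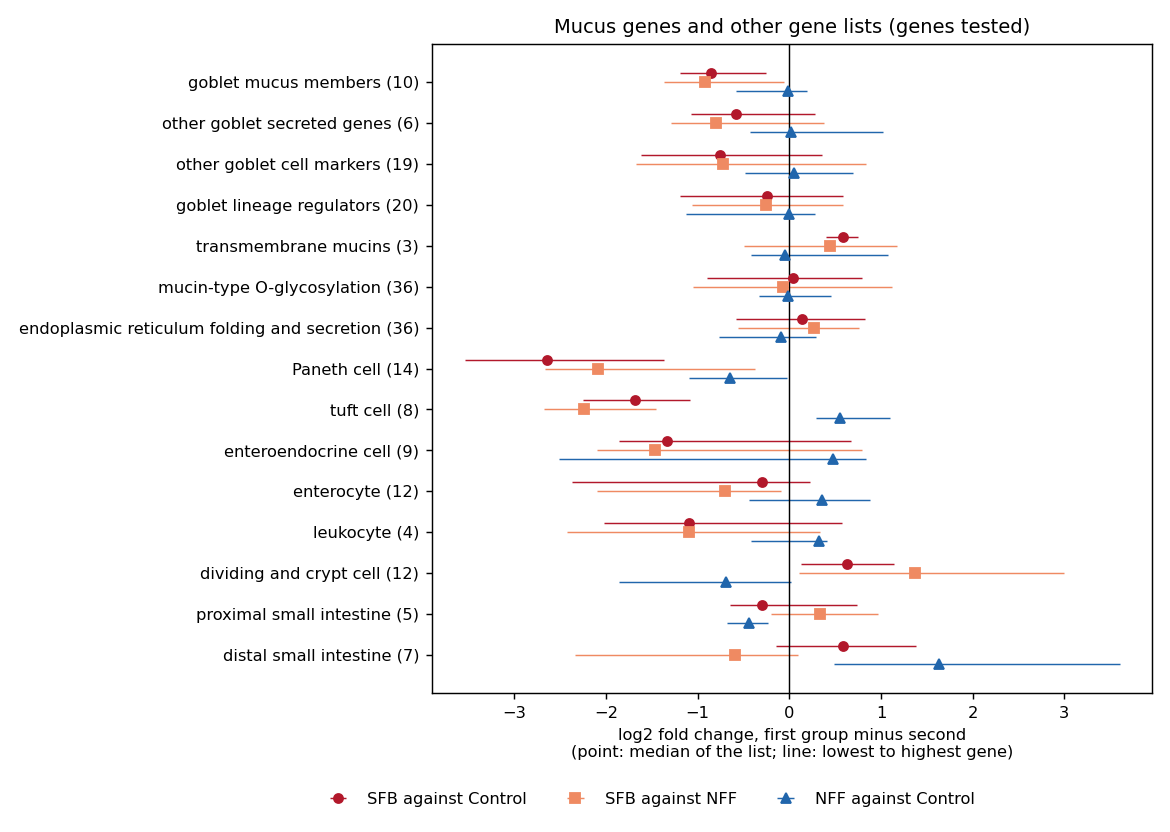
Median log2 fold change (points) and lowest to highest gene (lines) of the mucus genes and of 14 other lists, with the number of genes tested in brackets (y axis), in the 3 comparisons (x axis, log2 scale, first group minus second). The mucus genes have medians of -0.86 in SFB against Control, -0.92 in SFB against NFF and -0.011 in NFF against Control.

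Markers of the other secretory lineages had medians below 0 in SFB against Control and against NFF, as the mucus genes did. The 12 enterocyte markers had medians below 0 as well, -0.29 against Control with 9 of 12 below 0, and -0.71 against NFF with 12 of 12 below 0 and 1 that fell. The part of these cell types in the values above was not tested. The summed RPKM of 14 Paneth markers was 446 to 20181 in SFB, 17639 to 28194 in NFF and 20089 to 38275 in Control, that of 8 tuft cell markers 11.03 to 64.2, 139 to 266 and 87.7 to 169, and that of 9 enteroendocrine markers 213 to 894, 837 to 3551 and 886 to 2135. Markers of dividing and crypt cells ran the other way, with 69.96 to 325 in SFB, 27.4 to 45.9 in NFF and 39.4 to 142 in Control. In SFB against Control, 0 of 14 Paneth, 0 of 8 tuft and 0 of 9 enteroendocrine markers were called by limma. At an unadjusted p under 0.05, 6, 8 and 1 of them were lower, where 6.6% of all genes were. In SFB against NFF, 1, 8 and 2 of them fell, where 4.2% of all genes were called as lower.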

How the data were processed

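RNA-seq was measured in 11 libraries of 3 groups. Per the labels' protocols, RNA from sorted cells was amplified with SMART-seq v4 and made into libraries with NexteraXT, which add no molecular identifiers. The authors deposited these libraries as RPKM values, per the file headers. The submitters' processing notes name STAR and the mm10 genome. Which tool counted reads, which gene lengths were used and how genes were selected is not given in the sources used here, so the depth of each library is unknown and no counting interval is given. RPKM sums were 237248 to 302661 per library. No 2 columns were identical.

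Genes with at least 1 RPKM in at least 3 libraries were kept (10482 of 11366). Log2(RPKM + 1) values of all 11 libraries were fitted with limma 3.58.1 in R 4.3.3, 1 mean per group, 8 residual degrees of freedom, eBayes with a mean trend, and Benjamini-Hochberg adjustment over all genes at 0.05. This scale understates changes of genes near 1 RPKM. The script was tested on simulated data. The mucus genes and all lists were chosen with earlier results of these data known, so lists are described by counts and medians without a test. Genes named from each list are among its 3 called genes of largest change per comparison, or its 2 of lowest p where none was called. Also named are the 6 genes nearest the mean mucus profile. Alternatives were 2 other pseudocounts, 2 other filters, 2 scalings, 2 variance models, a fit of only the groups compared, a replicate block, a goblet marker covariate, and leaving out libraries singly or as a set of 3.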

Additional observations from a re-analysis of the deposited data

Results flagged for a closer look

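Ccl6 in SFB was flagged because SFB 3, at 176 RPKM, stood far above the other SFB libraries. Its gap to the next library was 0.845 of the range of the 4 values, where Dixon's 95% limit for 4 samples is 0.829. It was 1 flag among 22 sets of 4 values tested, the 10 genes and their sum in SFB and in NFF, and chance flags about 1 set in 20. SFB 3 was also the highest SFB library for the other 9 mucus genes.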

How the results depend on the processing

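The mucus genes gave 0 calls in SFB against Control and in NFF against Control under every alternative that was run. The 1 call in SFB against NFF (Ccl6) became 0 with no filter, with a mean RPKM of at least 3, under quantile normalization, with the goblet marker covariate, in a fit of only the groups compared and without Control 2, SFB 2 and SFB 4, and was 0 to 4 when single libraries were left out. Over all genes, SFB against Control gave 21 calls, 13 with a mean RPKM of at least 3, 11 under median ratio scaling, 0 with the covariate, 1 with only the groups compared, 95 without the 3 libraries and 7 to 94 without single libraries. NFF against Control gave 0 calls, 1 with only the groups compared, 22 without the 3 libraries and 0 to 8 without single libraries. SFB against NFF gave 769, 1173 under quantile normalization, 49 with the covariate and 240 to 994 without single libraries. The cause of these shifts was not tested.

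The labels state no pairing by replicate number, and the check of the deviations was mixed. Same-numbered SFB and NFF libraries had r of 0.028, -0.17, -0.30 and -0.27, and 0 of 4 SFB libraries correlated best with their own number in NFF. The pairs shared with Control had r of 0.20 (SFB 2) and 0.67 (SFB 4), and -0.17 (NFF 2) and -0.28 (NFF 4). As the labels state no pairing, the samples are taken to share only a number, which the check does not settle for SFB and Control. With the replicate block, SFB against Control gave 0 calls over all genes, SFB against NFF 335 over all genes and 0 mucus genes, and the NFF against Control values of Zg16, Ern2 and Agr2 turned to 0.074, 0.14 and 0.13 and that of Ccl6 to -0.016.

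The covariate moved the median of the mucus genes to 0.092 in SFB against Control and 0.12 in SFB against NFF. With it, SFB against Control turned to 0.069 for Muc2, 0.25 for Tff3, 0.25 for Clca1, 0.11 for Zg16, 0.52 for Agr2 and 0.11 for Spdef. SFB against NFF turned to 0.056, 0.34, 0.10, 0.18, 0.59 and 0.14 for the same genes and 0.31 for Spink4, and NFF against Control to -0.028 for Spdef and -0.011 for Ccl6. Under quantile normalization Tff3 was 0.011 in SFB against Control, Spink4 0.25 in SFB against NFF, and Tff3, Zg16 and Ern2 were 0.24, 0.17 and 0.0082 in NFF against Control. Without the 3 libraries the values were 0.026 for Tff3 in SFB against Control, 0.25 for Spink4 in SFB against NFF, and 0.17, 0.095 and 0.080 for Tff3, Zg16 and Ern2 in NFF against Control. A pseudocount of 0.1 gave -0.0048 for Spdef in NFF against Control.

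Leaving out single libraries turned the sign in NFF against Control of every gene but Spink4, with ranges of -0.18 to 0.36 for Muc2, -0.32 to 0.17 for Tff3, -0.058 to 0.48 for Fcgbp, -0.11 to 0.52 for Clca1, -0.29 to 0.17 for Zg16, -0.31 to 0.21 for Agr2, -0.34 to 0.33 for Spdef, -0.34 to 0.22 for Ern2 and -0.22 to 0.25 for Ccl6. In SFB against NFF it turned Agr2 (-0.46 to 0.056) and Spink4 (-0.23 to 0.073). No mucus gene changed sign in SFB against Control without a single library, where the median ranged from -1.02 to -0.58, and in SFB against NFF from -1.23 to -0.65. With 3 or 4 libraries a group and unknown depth, even differences above 1 in size on the log2 scale went uncalled, such as -1.36 for Fcgbp in SFB against NFF and -1.20 for Ern2 in SFB against Control.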
